A study of Rattus norvegicus with 144 samples.

Results

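Gene expression in the prefrontal cortex (PFC) was compared between HIV-1Tg and F344 rats, with saline-treated and nicotine-treated animals of each strain pooled and drug kept as a factor. The comparison uses the 48 PFC samples of 144 samples in the series, 24 from HIV-1Tg and 24 from F344 rats. HIV-1Tg rats carry an HIV-1 provirus as a transgene on the F344 background, and F344 is the control strain. The rats form 4 groups of 12 adult males, named F344_Sal, F344_Nic, HIV_Sal, and HIV_Nic. Saline groups received 1 ml/kg saline and nicotine groups 1 ml/kg of 0.25 mg/ml nicotine under the skin, with 2 injections a day for 17 days. All had been in an earlier behavioral experiment. RNA of the transgene itself was not analysed here, so the strain labels could not be checked against it.

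The HIV-1Tg rat is used as a model of long exposure to viral proteins without infection, since the gag and pol genes that the virus needs to replicate were removed from the provirus. Its remaining viral genes are driven by the viral long terminal repeat, which is active in many tissues. The PFC takes part in planning and in the control of behavior, and deficits in both are reported in people living with HIV. Nicotine acts on acetylcholine-gated ion channels that neurons of this cortex carry.

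Each value is an FPKM, the number of sequenced fragments of a transcript scaled by its length and by the mapped fragments of the library. Of 39085 transcripts that matched the Ensembl annotation exactly, 13659 exceeded 0.01 FPKM in 6 or more rats of every group of 12 and were tested on the log2(FPKM + 0.1) scale. Differences are given as HIV-1Tg minus F344 on that scale, which understates the change of transcripts near 0. Gene names stand nowhere beside the identifiers used here, so most transcripts are called by their length in bases. The lists of pathway genes and of cell type markers were for the same reason not analysed here, and the PFC label was not checked against markers. Read numbers are unknown. Base coverage divided by FPKM, which follows the number of mapped fragments, was 2.12 to 3.53 in F344_Sal, 2.28 to 3.55 in F344_Nic, 2.28 to 3.56 in HIV_Sal, and 2.08 to 2.87 in HIV_Nic libraries.

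In the PFC, 12 libraries stood apart, and all of them came from nicotine-treated rats. In F344_Nic rats 1, 2, 3, 5, 6, 7, 9, 10, 11, and 12, the coverage per FPKM of short transcripts (200 to 400 bases) over that of long ones (3000 bases or more) was 0.901 to 0.924. It was 0.768 and 0.769 in the other F344_Nic rats, 8 and 4, and 0.686 to 0.797 in the 38 PFC libraries other than those 10. The 10 also had less coverage per FPKM over all transcripts, 2.28 to 2.59, than rats 4 and 8, with 3.55 and 3.39. What set the 10 apart was not tested. Over all 3 regions, 0 of the other 134 libraries passed 0.798. HIV_Nic rats 10 and 11 stood apart in another way, with median correlations of 0.643 and 0.729 to the other PFC libraries, against 0.764 to 0.798 for each of the 46 others. These 10 libraries are 10 of the 24 F344 libraries and all of them are in 1 drug group. The counts past the adjusted threshold are given below with and without them.

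**Figure D1:**
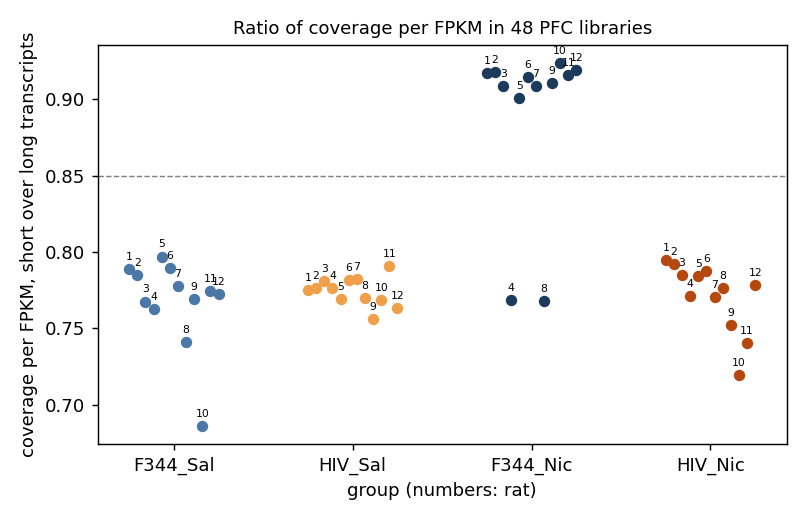
Each point is 1 PFC library, placed by group on the x axis, and the y axis gives the coverage per FPKM of transcripts of 200 to 400 bases divided by that of transcripts of 3000 bases or more. Of the F344_Nic libraries, 10 lie between 0.901 and 0.924, above the dashed line at 0.85, and rats 4 and 8 lie with the other groups.

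With drugs pooled, 514 transcripts differed between strains at an adjusted p under 0.05, which is 3.76% of those tested. Of these, 437 were higher (3.20%) and 77 were lower (0.564%) in HIV-1Tg rats. The split depended on the processing, with 550 higher and 180 lower under sample weights, and 469 higher and 166 lower without HIV_Nic rats 10 and 11. Without adjustment, 1272 (9.31%) passed the threshold that the study states, p under 0.05 with a fold change over 1.2. That number was 438 without the 10 libraries. In tissue RNA, fewer cells of a type and less RNA per cell cannot be told apart. The higher transcripts were short. Their median length was 615 bases against 1768 for all tested, and 253 of the 437 (57.9%) were under 700 bases, against 14.9% of all tested. Their median difference was 1.52 in the nicotine rats and -0.03 in the saline rats. For 394 of the 437 (90.2%), the median of the 10 F344_Nic libraries that stood apart was outside the range of the 12 F344_Sal rats, against 7.10% of all tested. The pooled test used these 10 libraries, so that count follows in part from the choice of the 437. F344_Nic rats 4 and 8 were both inside the F344_Sal range for 318 of these 394, against 677 of the 970 such transcripts over all tested. The 77 lower transcripts had a median length of 832 bases, and 30 of them (39.0%) were under 700 bases. For 30 of the 77 (39.0%), the median of the 10 libraries was outside the F344_Sal range.

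Without the 10 libraries, the same fit of group means put 8 transcripts past the adjusted threshold in place of 514, 6 higher and 2 lower. A fit with strain and drug as added factors gave 404 over all 48 rats, 341 higher and 63 lower. Without the 10 it gave 3, or 0.0218% of 13761 tested, and all 3 were lower in HIV-1Tg rats. Leaving out 10 of the 24 F344 rats also makes the comparison smaller. Of the 437 higher transcripts, 195 still had a difference above 0 without those libraries, with a median of -0.01, and 20 of them (4.58% of the 437) had an unadjusted p under 0.05. Of the 77 lower transcripts, 67 of the 76 with a value still had a difference below 0, and 35 of these (46.1% of the 76) had an unadjusted p under 0.05. Over all 13352 tested in both fits, 10036 kept their direction, and 456 (3.42%) did so with an unadjusted p under 0.05. Both fits share 38 rats, so these counts are no separate test. Without the 10 libraries the median difference of the lower transcripts was -0.29, against -0.04 for all tested.

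The pattern is plain in single transcripts. A 387-base transcript had the highest pooled difference of those that did not hold in both drug groups, 2.72 (SE 0.36, adjusted p = 2.95e-06). Its FPKM ran from 11.19 to 18.1 (median 13.9) in F344_Sal, from 11.6 to 16.0 (median 13.1) in HIV_Sal, and from 10.3 to 22.9 (median 12.4) in HIV_Nic rats. In the 10 F344_Nic libraries it was 0 to 0.223, while F344_Nic rats 4 and 8 had 10.2 and 11.1. A 433-base transcript showed the opposite, with the lowest pooled difference of those that did not hold, -1.79 (SE 0.33, adjusted p = 1.68e-04). It had 4.68 to 7.46 FPKM in the 10 libraries, 0.143 and 0.103 in F344_Nic rats 4 and 8, and medians of 0.236, 0.185, and 0.281 in F344_Sal, HIV_Sal, and HIV_Nic rats. Without the 10 libraries the difference of the 387-base transcript was 0.13 (p = 0.300) with group means and 0.005 (adjusted p = 0.999) in the additive fit. That of the 433-base transcript turned to 0.22 (p = 0.501) with group means and was -0.08 (adjusted p = 0.999) in the additive fit.

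**Figure D2:**
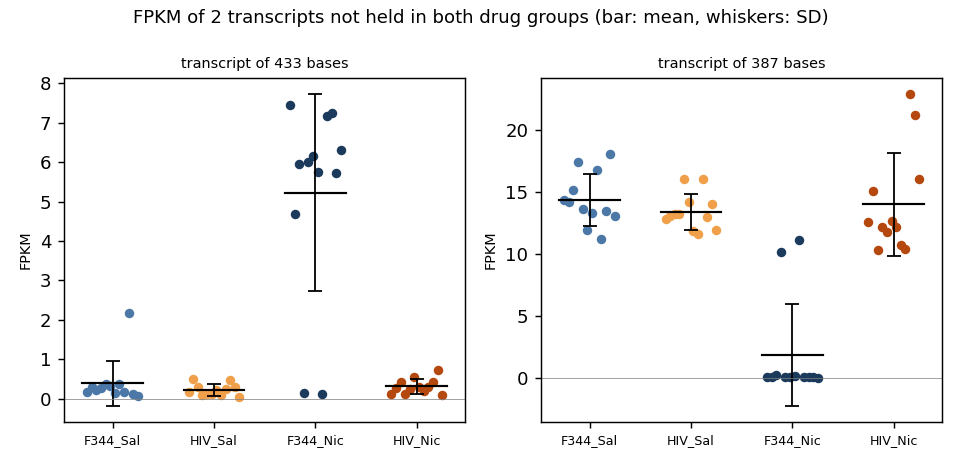
Points are the FPKM (y axis) of a 433-base and a 387-base transcript in each PFC library of the 4 groups (x axis), with the mean as a bar and the SD as whiskers (n = 12). In the F344_Nic group, 10 rats lie at 4.68 to 7.46 and at 0 to 0.223 FPKM, and the other 2 lie near the other groups.

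The comparison was then made in each drug group by itself. In saline rats, 3 transcripts were past the adjusted threshold (0.0220%), all lower in HIV_Sal than in F344_Sal rats. In nicotine rats, 817 were past it (5.98%), 676 higher (4.95%) and 141 lower (1.03%) in HIV_Nic than in F344_Nic rats. By the unadjusted threshold of the study, the saline rats had 569 transcripts (4.17%) and the nicotine rats 1867 (13.7%), and 516 and 457 without the 10 libraries. The difference between the drug groups was itself tested as an interaction, and 557 transcripts passed (4.08%), 513 with a more positive (3.76%) and 44 with a more negative (0.322%) difference in nicotine rats. Without the 10 libraries, 4 transcripts passed in saline rats, 37 in nicotine rats, and 14 in the interaction, where the F344_Nic group then held 2 rats.

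A difference was said to hold in both drug groups if it was past the adjusted threshold with drugs pooled and passed the unadjusted threshold of the study, in the same direction, in saline and in nicotine rats. The pooled test uses the same rats, so this is a description. In all, 34 transcripts held, 0.249% of those tested, and 27 were lower and 7 higher in HIV-1Tg rats. With median scaling 35 held, 24 lower and 11 higher. The lower transcripts had pooled differences from -1.87 to -0.35 with a median of -0.81, and the higher ones from 0.31 to 0.75 with a median of 0.61, against a median of -0.02 over all tested. Of the 514 pooled calls, 480 did not hold. Among the 34 transcripts, 0 had an unadjusted interaction p under 0.05, against 11.3% of all tested, but the rule selects for like differences in both drug groups, so nothing is read from this.

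**Figure D3:**
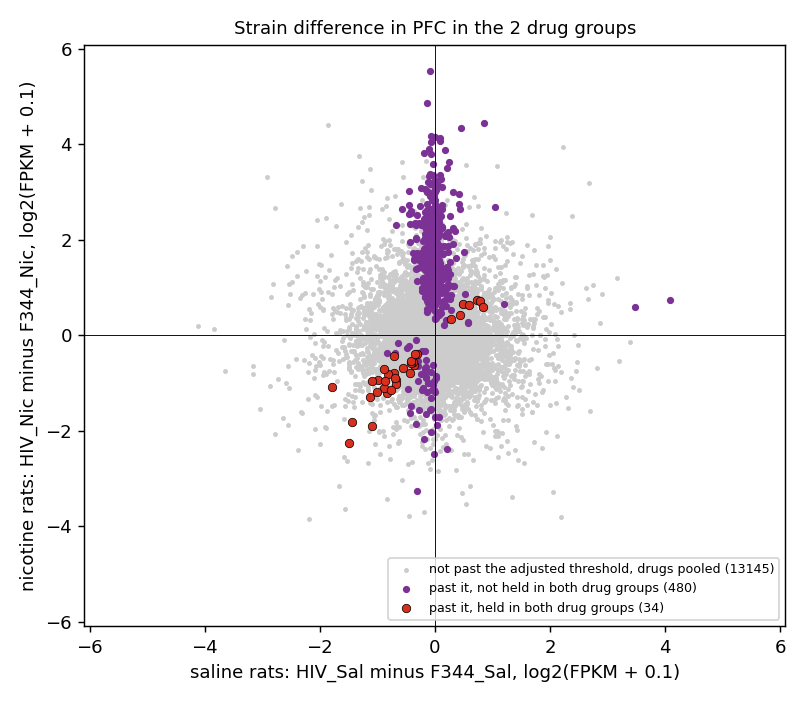
Each point is 1 of 13659 transcripts, with the strain difference in saline rats on the x axis and in nicotine rats on the y axis, both in log2(FPKM + 0.1). The 34 transcripts that held lie along the diagonal, mostly at the lower left, while most of the 480 others past the adjusted threshold lie near 0 in saline rats and above 0 in nicotine rats.

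Transcripts that held had to pass in saline rats, a group with none of the 10 libraries, so the rule itself bears on the next values. For 1 of the 27 lower and 0 of the 7 higher transcripts, the median of the 10 was outside the F344_Sal range. In the additive fit without the 10 all 34 had the same direction, 33 with an unadjusted p under 0.05, and medians of -0.83 and 0.58. Of all transcripts in that fit, 2.10% were lower and 1.42% higher with an unadjusted p under 0.05. These fits share most rats with the choice of the 34, so this is no separate test. The exception was a 411-base transcript, with -0.84 over all rats and -0.40 (p = 0.114) without the 10. With the whole rule applied again to group means without the 10, 2 transcripts held, both lower and both among the 34. After adjustment in the additive fit, 3 of the 34 were past the threshold without the 10, the same 3 that passed in saline rats. Leaving out each of the 48 libraries in turn, 17 of the 34 held in every fit, and ENSRNOT00000066536 held in the fewest, 11, of the 36 fits in which it passed the filter. The strains were fully apart in saline rats for 2 of the 34 and in nicotine rats for 0, against 2 (0.0146%) and 9 (0.0659%) of all 13659 tested.

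Saline and nicotine rats share no animal, so a call in one drug group can be read in the other. Both comparisons come from the same fit and share its estimate of the spread, so their p-values are not independent. All 3 transcripts called in saline rats were lower in HIV_Nic than in F344_Nic rats as well, and all 3 were past the adjusted threshold there, against 1.03% of tested transcripts that were called lower in nicotine rats. Their median difference was -1.10 in saline rats and -0.96 in nicotine rats. In the other direction, of the 817 transcripts called in nicotine rats, 277 had the same direction in saline rats, and 17 (2.08%) also passed the unadjusted threshold of the study there. Over all tested, 6511 (47.7%) had the same direction in both drug groups, and 284 (2.08%) also passed that threshold in saline rats. For the 817, the median size of the difference was 1.19 in nicotine rats and -0.05 in saline rats, where a value below 0 is a difference in the opposite direction.

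The first of the 3 was a 780-base transcript, the only exactly matching transcript of its gene. Its FPKM was 9.04 to 15.4 (median 12.7) in F344_Sal and 4.457 to 6.94 (median 6.05) in HIV_Sal rats, so the strains did not overlap. In nicotine rats it was 8.33 to 13.9 (median 10.8) in F344_Nic and 3.22 to 9.45 (median 4.996) in HIV_Nic rats. There, 10 of the 12 HIV_Nic rats lay below every F344_Nic rat, and the other 2 were rats 10 and 11, with 9.45 and 9.43. The difference was -1.10 (SE 0.13, adjusted p = 5.03e-07) in saline rats, -0.96 (SE 0.13, adjusted p = 8.95e-08) in nicotine rats, and -1.03 (SE 0.09, adjusted p = 6.36e-11) pooled. Without the 10 F344_Nic libraries it was -1.12 in the additive fit (adjusted p = 2.11e-07) and -1.16 with group means (adjusted p = 8.23e-06), and without HIV_Nic rats 10 and 11 it was -1.11 (adjusted p = 4.73e-15). The interaction was 0.13 (SE 0.18, p = 0.464). With any 1 library left out it stayed past the adjusted threshold in saline rats, in nicotine rats, and pooled.

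The second was a 397-base transcript at a lower level. Its FPKM was 2.45 to 10.1 (median 4.44) in F344_Sal and 1.46 to 2.832 (median 2.19) in HIV_Sal rats. It was 3.05 to 4.82 (median 3.67) in F344_Nic and 1.02 to 3.36 (median 1.99) in HIV_Nic rats. All 24 HIV-1Tg rats lay below the F344 median of their drug group, and 9 HIV_Sal and 11 HIV_Nic rats lay below every F344 rat of that drug group. The difference was -0.99 (SE 0.17, adjusted p = 0.00486) in saline and -0.94 (SE 0.17, adjusted p = 7.07e-05) in nicotine rats, and -0.96 (SE 0.12, adjusted p = 2.63e-06) pooled. It was -0.97 without the 10 libraries in the additive fit (adjusted p = 0.00488) and -0.96 with group means (adjusted p = 0.0497). The 10 libraries had 3.05 to 4.82 FPKM of this transcript, and F344_Nic rats 4 and 8, with 3.91 and 3.62, were inside that range.

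The third was a 1195-base transcript, 1 of 3 exactly matching transcripts of its gene. It had 19.5 to 27.197 FPKM (median 22.1) in F344_Sal and 1.78 to 10.9 (median 7.32) in HIV_Sal rats, with no overlap. In nicotine rats the strains did overlap, with 2.66 to 22.8 (median 15.3) in F344_Nic and 1.36 to 13.7 (median 8.55) in HIV_Nic rats. The F344_Nic rat with 2.66 was rat 9, and the next lowest had 9.08. The pooled difference was -1.43 (SE 0.24, adjusted p = 4.88e-05). The difference was -1.78 (SE 0.34, adjusted p = 0.0195) in saline and -1.08 (SE 0.34, adjusted p = 0.0474) in nicotine rats, and the interaction was 0.70 (SE 0.48, p = 0.153). The call in saline rats was lost without HIV_Sal rat 4 or 11 (highest adjusted p = 0.0686). That in nicotine rats held in 18 of the 48 fits with a library left out (highest adjusted p = 0.119). Without the 10 libraries the additive fit gave -1.73 (adjusted p = 0.00561) and the fit of group means -1.66 (adjusted p = 0.0583).

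The other transcripts of that gene were over 0.01 FPKM in too few rats to be tested, at most 4 of the 12 in any group. A 1279-base one had mean FPKM of 1.59 and 1.13 in F344_Sal and F344_Nic rats, and of 0.235 and 0.214 in HIV_Sal and HIV_Nic rats. A 1164-base one ran the other way, with 0, 0.231, 0.436, and 0.807 FPKM in these 4 groups. FPKM summed over the 3 gave a pooled difference of -1.33 (adjusted p = 2.83e-05), so the sum was lower in HIV-1Tg rats as well. How Cufflinks divides fragments among transcripts of a gene bears on each of these values.

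The deposited tables give a lower and an upper bound with each FPKM. The distance from the middle of these bounds to either of them was 26.4% of the value in the median F344_Sal rat and 37.7% in the median HIV_Sal rat for the 780-base transcript. It was 37.8% and 51.8% for the 397-base and 9.16% and 20.1% for the 1195-base transcript.

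All 3 were measured in the dorsal hippocampus (HIP) and dorsal striatum (STR) too, which were taken from each brain along with the PFC, so these are other samples but not other rats. With drugs pooled, the HIP difference of the 780-base transcript was -0.96 (adjusted p = 2.41e-13), and the STR difference was -1.12 (adjusted p = 1.13e-17). For the 397-base transcript the values were -0.95 (adjusted p = 4.41e-04) and -0.80 (adjusted p = 0.0268), and for the 1195-base transcript -1.45 (adjusted p = 5.51e-06) and -1.26 (adjusted p = 5.13e-04). In both regions the 3 passed the adjusted threshold, in the direction seen in the PFC.

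**Figure D4:**
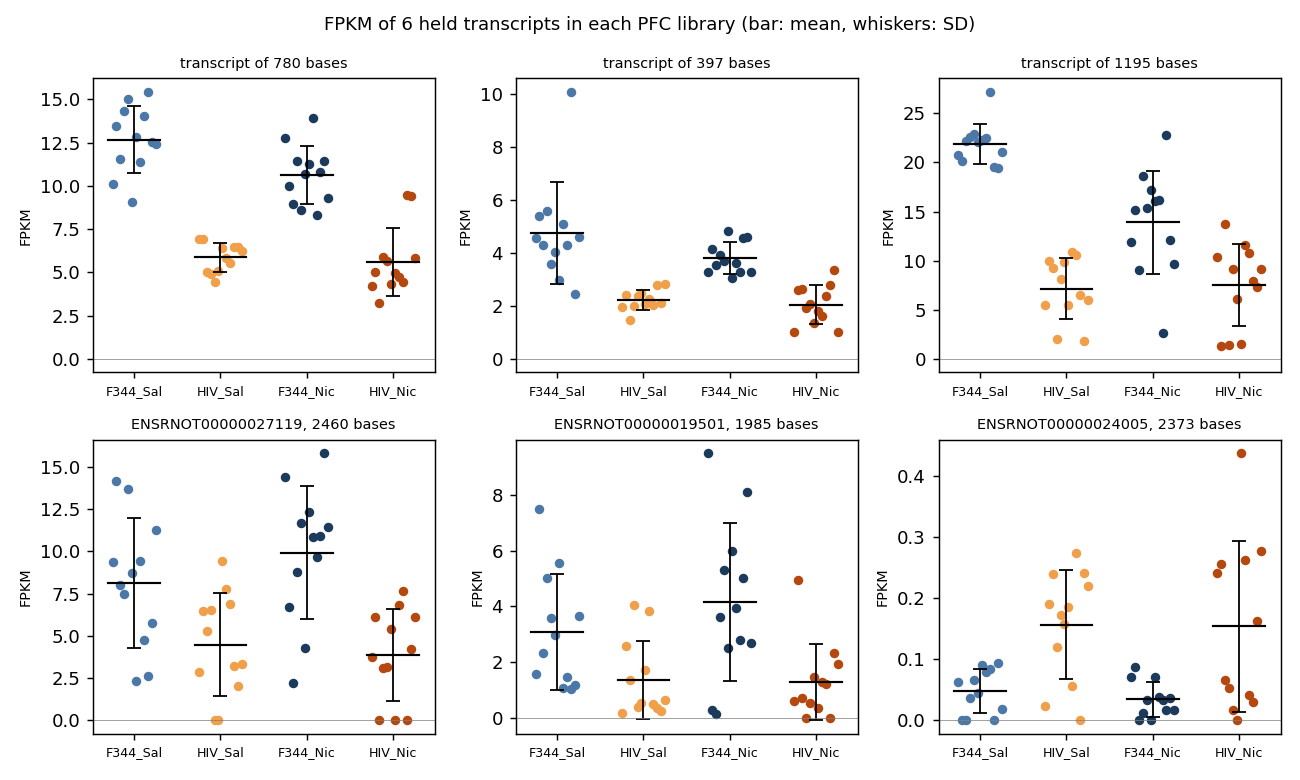
Points are the FPKM (y axis) of 6 transcripts that held, in each PFC library of the 4 groups (x axis), with the mean as a bar and the SD as whiskers (n = 12). The 780-base and 1195-base transcripts do not overlap between F344_Sal and HIV_Sal rats, while ENSRNOT00000027119, ENSRNOT00000019501, and ENSRNOT00000024005 overlap in both drug groups.

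The lowest pooled differences of the 34 belonged to 2 transcripts that varied widely from rat to rat. ENSRNOT00000027119 (2460 bases) had 2.34 to 14.2 FPKM (median 8.35) in F344_Sal and 0 to 9.43 (median 4.31) in HIV_Sal rats. It had 2.22 to 15.8 (median 10.9) in F344_Nic and 0 to 7.62 (median 3.99) in HIV_Nic rats. It was listed at 0 in 5 HIV-1Tg rats, 2 HIV_Sal and 3 HIV_Nic, and in 0 F344 rats. The pooled difference was -1.87 (SE 0.52, adjusted p = 0.0225), with -1.49 (SE 0.73, p = 0.0472) in saline and -2.26 (SE 0.73, p = 0.00332) in nicotine rats. Its size depended on the values at 0. With values at or below 0.01 and outliers removed it was -0.79 (adjusted p = 0.00626), and with a pseudocount of 0.01 it was -2.57 (adjusted p = 0.0575). Without the 10 libraries it was -1.69 (p = 0.0217, adjusted p = 0.999) in the additive fit and -1.94 (p = 0.0295) with group means.

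ENSRNOT00000019501 (1985 bases) had 1.06 to 7.50 FPKM (median 2.65) in F344_Sal and 0.170 to 4.04 (median 0.586) in HIV_Sal rats. It had 0.159 to 9.498 (median 3.79) in F344_Nic and 0 to 4.96 (median 0.953) in HIV_Nic rats. In saline rats 7 of the 12 HIV_Sal rats lay below every F344_Sal rat and 10 below the F344_Sal median. In nicotine rats 2 of the 12 HIV_Nic rats lay below every F344_Nic rat and 11 below the F344_Nic median. The pooled difference was -1.62 (SE 0.41, adjusted p = 0.0102), with -1.44 (SE 0.58, p = 0.0175) in saline and -1.81 (SE 0.58, p = 0.00326) in nicotine rats. The additive fit without the 10 libraries gave -1.61 (p = 0.00184, adjusted p = 0.964).

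Some of the 27 lower transcripts moved together from rat to rat within groups. Over deviations from the group means in 48 libraries, 11 were picked because each had a correlation over 0.5 with at least 5 of the other 26, and ENSRNOT00000019501 was among them. The median correlation among the 11, which this choice makes high, was 0.69. Over pairs of all 27 the median was 0.07, and 15.1% of the 351 pairs were over 0.5, against 1.31% of pairs in a sample of 2492 tested transcripts taken at equal steps. These correlations are descriptions over rats that share group and library preparation. The 3 transcripts called in saline rats had 0 partners over 0.5 among the 27, and their highest correlation was 0.36.

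The 11 transcripts were 1056 to 3114 bases long, with mean FPKM in F344 rats from 0.507 to 81.8 and pooled differences from -1.62 to -0.49. Their summed FPKM was 149 to 323 (median 200.1) in F344_Sal, 89.6 to 265 (median 123) in HIV_Sal, 110 to 300.1 (median 219) in F344_Nic, and 74.3 to 202 (median 119) in HIV_Nic rats. The sum lay below the F344 median of the drug group in 9 of 12 HIV_Sal and 12 of 12 HIV_Nic rats, and the groups overlapped. Because they moved together, the 11 differences are not 11 separate observations. Of 12459 transcripts with a value in every library, 2 others had a correlation over 0.7 with the mean of the 11. Both were lower in HIV-1Tg rats, 1 with an unadjusted p under 0.05. Their median difference was -0.21, against -0.02 over all tested. In F344_Sal rats the median ratio of the FPKM of the 11 in the HIP to that in the PFC was 0.426, and in the STR 0.361. The ranges over the 11 were 0.198 to 0.976 and 0.290 to 1.22. All 11 had a lower mean in the HIP than in the PFC, and 10 of the 11 in the STR. Such ratios were not computed over all tested transcripts, so nothing is read from these counts. The median difference of the 11 was -0.81 among PFC, -0.22 among HIP, and -0.40 among STR samples. At an unadjusted p under 0.05, 5 of the 11 were lower in the HIP and 8 in the STR, against 1.99% and 6.49% of all tested there. Markers of neighboring tissue were not analysed here, so the part of the dissection in these differences was not tested.

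Of the other 16 lower transcripts, including ENSRNOT00000027119 and the 3 called in saline rats, lengths ran from 393 to 4756 bases and differences from -1.87 to -0.35. An 832-base transcript among them had a pooled PFC difference of -0.75, or -0.52 (p = 0.00877) without the 10 libraries. Its difference was -0.72 (adjusted p = 0.0414) among HIP samples and -1.14 (adjusted p = 6.38e-05) among STR samples. It was thus past the adjusted threshold in both other regions, as were the 3 called in saline rats. Over all 27 lower transcripts, 19 had a mean FPKM of at least 1 in F344 rats. In the HIP, 24 of the 26 with a value had a difference below 0, 11 with an unadjusted p under 0.05, against 1.99% of all transcripts tested there. In the STR, 23 of 26 were below 0, 14 with an unadjusted p under 0.05, against 6.49% of all tested there. The share of all transcripts below 0 in these regions was not computed, so nothing is read from the counts of direction. The 11 that moved together are among the 27, so these are not separate observations.

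**Figure D5:**
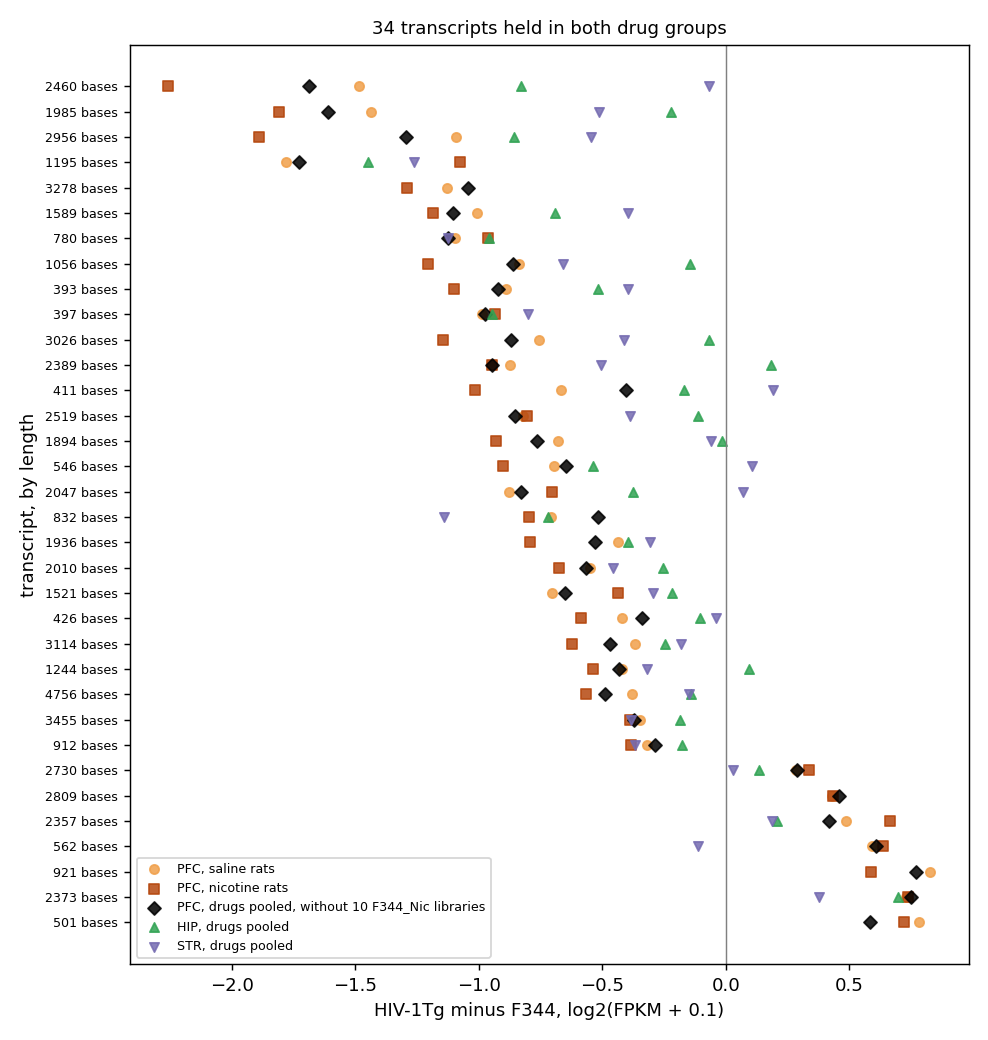
Each row is 1 of the 34 transcripts that held, named by its length, and the x axis is HIV-1Tg minus F344 in log2(FPKM + 0.1). Symbols give the difference in the PFC of saline rats, of nicotine rats, and of all rats without 10 F344_Nic libraries, and in HIP and STR samples with drugs pooled. The PFC values of each transcript have 1 direction, while those of the HIP and STR are nearer 0 for most transcripts other than those of 780, 397, 1195, and 832 bases.

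The 7 transcripts that were higher in HIV-1Tg rats in both drug groups were mostly at low levels, and 2 of them had a mean FPKM of at least 1 in HIV-1Tg rats. These were a 2730-base transcript with means of 16.9 in F344 and 20.6 in HIV-1Tg rats and a pooled difference of 0.31, and a 2357-base transcript with 5.80 and 8.61 and a difference of 0.58. ENSRNOT00000066536 (501 bases) had 0 to 0.260 FPKM (median 0.0256) in F344_Sal, 0 to 0.398 (median 0.1598) in HIV_Sal, 0 to 0.444 (median 0.107) in F344_Nic, and 0 to 0.580 (median 0.226) in HIV_Nic rats. It was listed at 0 in 12 of the 24 F344 and 2 of the 24 HIV-1Tg rats. The pooled difference was 0.75 (SE 0.22, adjusted p = 0.0414), and with a pseudocount of 1 it was 0.14 (adjusted p = 0.0698). Leaving out the 10 F344_Nic libraries gave 0.33 (p = 0.268) with group means and 0.58 (p = 0.0256, adjusted p = 0.999) in the additive fit.

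ENSRNOT00000024005 (2373 bases) had 0 to 0.0938 FPKM (median 0.0542) in F344_Sal and 0 to 0.274 (median 0.179) in HIV_Sal rats. It had 0 to 0.0870 (median 0.0333) in F344_Nic and 0 to 0.438 (median 0.114) in HIV_Nic rats. Above every F344 rat of their drug group lay 9 HIV_Sal and 6 HIV_Nic rats. The pooled difference was 0.73 (SE 0.16, adjusted p = 0.00187), and it stayed past the adjusted threshold with any 1 library left out. The additive fit without the 10 libraries gave 0.75 (p = 0.00137, adjusted p = 0.942). Among HIP samples it was 0.70 (adjusted p = 0.0258) and among STR samples 0.38 (p = 5.76e-04, adjusted p = 0.111). At these levels the deposited bounds were wide. The distance from the middle of the bounds to either of them was 100% and 121% of the value in the median F344_Sal and F344_Nic rat. It was 63.2% and 60.3% in the median HIV_Sal and HIV_Nic rat.

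At the threshold of the study alone, without adjustment, 33 transcripts were lower (0.242%) and 12 higher (0.0879%) in both drug groups, and 12 and 2 without the 10 libraries. Of the 13659 tested, 367 were lower and 202 higher by that threshold in saline rats. In nicotine rats 707 were lower and 1160 higher. The overlap to be expected between unrelated drug groups was not computed, so these counts are descriptions. Above 0.01 FPKM in at least 20 of the 24 rats of 1 strain and at most 4 of the 24 of the other were 0 transcripts in either direction.

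In the PFC the study named genes of Wnt/beta-catenin and ephrin B signaling, and 3 of the 7 could be linked to an exactly matching transcript through its group values. These were Axin1, a scaffold of the complex that degrades beta-catenin, Fgf9, a secreted fibroblast growth factor, and Ephb1, a receptor tyrosine kinase for ephrin B ligands. The study chose them on these samples, and the link was made after the data were examined. It reported each of them as lower in HIV_Sal than in F344_Sal rats and as returned to normal by nicotine in HIV-1Tg rats. A strain difference pooled over drugs, or held in both drug groups, does not test that claim. Axin1 (ENSRNOT00000027705) had median FPKM of 4.78 and 3.05 in F344_Sal and HIV_Sal rats, and of 4.64 and 4.74 in F344_Nic and HIV_Nic rats. Its strain difference was -0.66 (SE 0.24, p = 0.0088) in saline and -0.09 (SE 0.24, p = 0.72) in nicotine rats, and the interaction was 0.57 (SE 0.34, p = 0.0998). Pooled it was -0.37 (SE 0.17, p = 0.0336, adjusted p = 0.378), so it did not hold in both drug groups.

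The Fgf9 transcript had medians of 3.30, 1.83, 2.833, and 2.889 FPKM in F344_Sal, HIV_Sal, F344_Nic, and HIV_Nic rats. Its difference was -0.83 (SE 0.41, p = 0.0487) in saline and 0.22 (SE 0.41, p = 0.593) in nicotine rats, with an interaction of 1.05 (SE 0.58, p = 0.0764). Pooled it was -0.30 (SE 0.29, adjusted p = 0.804), within the spread between rats. The Ephb1 transcript had medians of 7.70, 6.81, 7.30, and 7.12 FPKM in the same order, and a pooled difference of -0.14 (SE 0.07, p = 0.0503). It was -0.16 (SE 0.09, p = 0.103) in saline and -0.11 (SE 0.09, p = 0.244) in nicotine rats. HIV_Nic rats 10 and 11 were the lowest of their group, at 3.93 and 4.06 FPKM, and without them and the 10 F344_Nic libraries the pooled difference was -0.09 (p = 0.149) in the additive fit and 0.000476 with group means, where F344_Nic rats 4 and 8 alone stood for their group. Of the 3, 0 were past the adjusted threshold with drugs pooled in the limma fit, against 3.76% of all tested. An unadjusted pooled p under 0.05 was seen for 1 of them. Over all tested, 9.31% had such a p with a fold change over 1.2. With low values and outliers removed, the Fgf9 difference was -0.66 (adjusted p = 0.0478 by limma), and by two-way ANOVA on those values the Ephb1 difference was -0.10 (adjusted p = 0.0129).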

How the data were processed

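RNA libraries of single rats were sequenced with 50-base paired ends. The authors aligned reads to the rat genome Rn4 with TopHat and Bowtie (1.04 per the submitters' processing notes) and used Cufflinks to give FPKM, which the deposited tables pack with coverage, length, and other fields into 1 cell per transcript and library. For TopHat and Cufflinks no version was found. The FPKM is the 4th field, and fragments of 1 cell were summed (0.335% of cells). Columns of sample values left unused numbered 0. Missing values were left out.

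Groups came from the labels. The log2(FPKM + 0.1) values of the 4 PFC groups were fitted with limma 3.58.1 in R 4.3.3 with a trended prior and contrasts for strain pooled, in each drug group, and for the interaction, with Benjamini-Hochberg adjustment over 13659 transcripts. The fit was tested on simulated data. The study's methods name strain and sex as ANOVA factors, whereas strain and drug were used here. Read numbers are unknown, so no counting error is given. No 2 libraries were duplicates (at most 0.0117% equal values above 1 FPKM).

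The comparison, gene lists, and tests were chosen with earlier results of these data known. The rule for named transcripts was the largest differences that held in both drug groups, examples that did not hold, and genes the study named. Without gene names, at most 2 identifiers in each direction were printed and other transcripts, including the 3 called in saline rats, are given by length. A gene was linked when 8 group values matched within 0.0051. Alternatives covered the pseudocount, filter, outlier removal, scaling, weights, gene sums, a replicate block, missing values as 0, the fold threshold, and libraries left out. Fits without the 10 F344_Nic libraries, the factor for rats 1 to 6, the first fragment of a cell, and fits of only 24 libraries were added after the data were examined.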

Additional observations from a re-analysis of the deposited data

Results flagged for a closer look

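The strain difference itself differed between drug groups. By the test of the interaction, 513 transcripts had a more positive and 44 a more negative difference in nicotine than in saline rats at an adjusted p under 0.05. Without the 10 F344_Nic libraries that stood apart, 14 transcripts were past that threshold, with 2 F344_Nic rats left.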

How the results depend on the processing

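Choices not named here kept each total within 1.5 times, but not always its split by direction. Sample weights gave 550 higher and 180 lower pooled, 715 and 215 in nicotine rats, and 586 and 103 in the interaction. Without HIV_Nic rats 10 and 11 the interaction had 76 lower, and with only the 24 libraries compared the nicotine rats had 93 lower. Held transcripts that were higher numbered 15 with no filter, 3 at a mean FPKM of at least 1, 11 with median scaling, 12 without HIV_Nic rats 10 and 11, and 11 without HIV_Sal rat 3. In saline rats, 1 was higher without the 10 libraries, with or without HIV_Nic rats 10 and 11. Removing values at or below 0.01 and outliers beyond 1.5 interquartile ranges gave 1061 pooled (736 higher, 325 lower), 12 saline (2 and 10), 1426 nicotine (964 and 462), 1016 interaction (815 and 201), and 120 held transcripts (41 and 79) with limma. With a two-way ANOVA on the same values these were 1097 (746 and 351), 18 (6 and 12), 1431 (960 and 471), 1032 (827 and 205), and 118 (41 and 77). By the study's unadjusted threshold, 1272, 569, 1867, and 1541 transcripts passed in the first 4 comparisons. The number that held was 53 with a filter on either strain (20 higher, 33 lower) and 53 with sample weights (14 and 39). Without the 10 F344_Nic libraries, group means gave 8 pooled, 37 nicotine, 14 interaction, and 2 held transcripts, and 14, 57, 21, and 2 when HIV_Nic rats 10 and 11 were left out too. Of the 8, 2 were among the 514. The additive fit gave 3 in both cases. Fits without HIV_Nic rats 10 and 11 alone gave 635 pooled, 3 saline, 878 nicotine, 616 interaction, and 49 held transcripts.

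With 1 library left out, the counts were 473 to 583 pooled, 2 to 5 saline, 755 to 846 nicotine, 531 to 624 interaction, and 30 to 41 held. The 5 in saline rats, 1 higher and 4 lower, came without F344_Sal rat 7. The direction of the 433-base transcript reversed to 0.22 without the 10 libraries and 0.14 without the 12 in the fits of group means, and that of the 387-base transcript to -0.028 without the 12 in the additive fit. Ephb1 reversed to 0.000476 without the 12 with group means.

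Rats with the same replicate number did not deviate together, with mean correlations of -0.013 to 0.010, and 3 of 48 libraries correlated best with their own number, so the number does not pair the samples. With the replicate block, 504 pooled, 2 saline, 800 nicotine, 545 interaction, and 34 held transcripts were counted.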
